A study of Mus musculus with 18 samples.

Results

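The genes described here are the cytosolic ribosomal protein genes of the mouse caput epididymis. They were picked by symbol, and the set was chosen with earlier results of these data known. Taken were the large-subunit names Rpl and the small-subunit names Rps followed by a number and, for some, a paralogue suffix. The stalk proteins Rplp0, Rplp1 and Rplp2 and the small-subunit protein Rpsa were added. Pseudogene rows and the Rps6k kinases were left out. This rule found 87 of 53819 gene rows, 54 of the large and 33 of the small subunit. Of these, 85 had enough reads to be tested (53 large, 32 small), among 18618 genes tested. Of the remaining pair, Rps12l1 had no read in any library, and Rpl10l, in mice a testis paralogue of Rpl10, had 0 to 20 reads per library.

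RNA sequencing was performed on total RNA of the caput epididymis, the head of the duct where sperm mature, from C57BL/6J mice. The 18 libraries fall into 6 groups of 3: control, 6% EtOH and 10% EtOH mice at 10 weeks, and the same 3 arms after cessation, which the series title places at a month. The route of the ethanol, the ages of the mice and how long the cessation groups were treated were not found in the labels. Nor do the labels say whether libraries of a group came from separate litters, cages or days, so the p-values below measure the spread between these libraries. For replicate 1 of the 6% EtOH cessation group, the animal identifier in the label is not the one in the header of its counts, and the identifier of 10% EtOH 10-week replicate 3 is of another kind than the rest. These are also the libraries in which ribosomal protein genes were lowest of all 18 most often, for 29 and 23 genes.

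The ribosome translates messenger RNA on a small subunit, which holds the decoding centre, and a large subunit, which joins amino acids and releases the growing chain through an exit tunnel. In most mammalian cells ribosomal protein genes are transcribed at high and balanced rates, and their messenger RNAs start with a run of pyrimidines (the TOP motif) through which mTORC1 controls their translation. Caput principal cells secrete proteins into the lumen and so rely on this machinery. A few ribosomal proteins have paralogues with narrower expression, such as Rpl3l in striated muscle and Rpl39l in male germ cells.

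RefSeq promoters (build GRCm38.p6) are shown for the genes with the highest level per transcript length in each subunit, Rpl41 and Rps27, and for those with the smallest p over the 6 groups, Rpl22l1 in the large subunit and again Rps27 in the small. Each holds 250 bases before and 50 after the annotated start, read along the gene. Rpl41 is at chr10:128549119-128549418 on the minus strand, Rpl22l1 at chr3:28805258-28805557 on the plus strand and Rps27 at chr3:90213599-90213898 on the minus strand. Capitals mark the longest unbroken run of C and T that overlaps the 20 bases on either side of the start.
Rpl41: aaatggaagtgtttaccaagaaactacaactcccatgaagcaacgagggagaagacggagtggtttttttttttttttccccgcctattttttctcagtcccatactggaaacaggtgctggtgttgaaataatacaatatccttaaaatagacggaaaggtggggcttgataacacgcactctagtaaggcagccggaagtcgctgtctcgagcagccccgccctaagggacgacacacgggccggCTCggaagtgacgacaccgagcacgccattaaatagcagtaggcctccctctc
Rpl22l1: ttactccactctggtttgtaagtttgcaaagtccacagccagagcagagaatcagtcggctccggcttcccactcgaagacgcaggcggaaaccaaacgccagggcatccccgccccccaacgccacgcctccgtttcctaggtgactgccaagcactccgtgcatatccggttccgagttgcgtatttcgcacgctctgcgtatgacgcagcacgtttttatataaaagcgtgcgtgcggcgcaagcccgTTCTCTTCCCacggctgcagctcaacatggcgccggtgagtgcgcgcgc
Rps27: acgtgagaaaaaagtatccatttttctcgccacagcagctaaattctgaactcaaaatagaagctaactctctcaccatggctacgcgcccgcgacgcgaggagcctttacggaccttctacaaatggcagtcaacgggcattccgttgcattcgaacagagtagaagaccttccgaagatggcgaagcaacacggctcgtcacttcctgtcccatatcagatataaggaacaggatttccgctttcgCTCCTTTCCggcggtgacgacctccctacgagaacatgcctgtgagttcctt
The run is 10 bases long in Rpl22l1, 9 in Rps27 and 3 in Rpl41. The printed Rpl41 sequence ends in a longer run of C and T that lies outside the window, so these lengths depend on the annotated start and the window. The promoter table held 64 of the 87 genes, with 76 annotated starts. A run of at least 8 pyrimidines was found at 36 of these 76 starts (47.4%), against 21.2% of the 32851 starts of all genes. Searched on both strands, CCGGAAG, the core bound by ETS factors, was present at 26 starts (34.2%, against 8.86% of all starts) and is found in the Rpl41 promoter. The letters AAGATGG, the core bound by YY1, were present at 12 (15.8% against 6.34%) and stand in the Rps27 promoter, and TATAAA was present at 8 (10.5% against 13.6%) and stands in that of Rpl22l1. The end of CCGGAAG can overlap the beginning of AAGATGG.

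Ribosomal protein genes were among the most abundant messages of the caput. Levels are given as CPM, read counts relative to the library total, scaled for library composition, and compared between genes only per kilobase of transcript. The median over the 85 genes was 513 CPM per kb, against 4.44 for all genes tested. The small-subunit genes had a median of 609 and the large-subunit genes a median of 488 CPM per kb. Rps27, a small-subunit protein with a zinc finger, had the highest level at 2196 CPM per kb, followed by Rpl41, which encodes a very short basic peptide of the large subunit, at 1668. In the 18 libraries Rpl41 ranged from 522 to 870 CPM. Of the 85 genes, 71 had a mean of at least 3000 reads, so that counting error was small beside the spread between libraries.

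**Figure D1:**
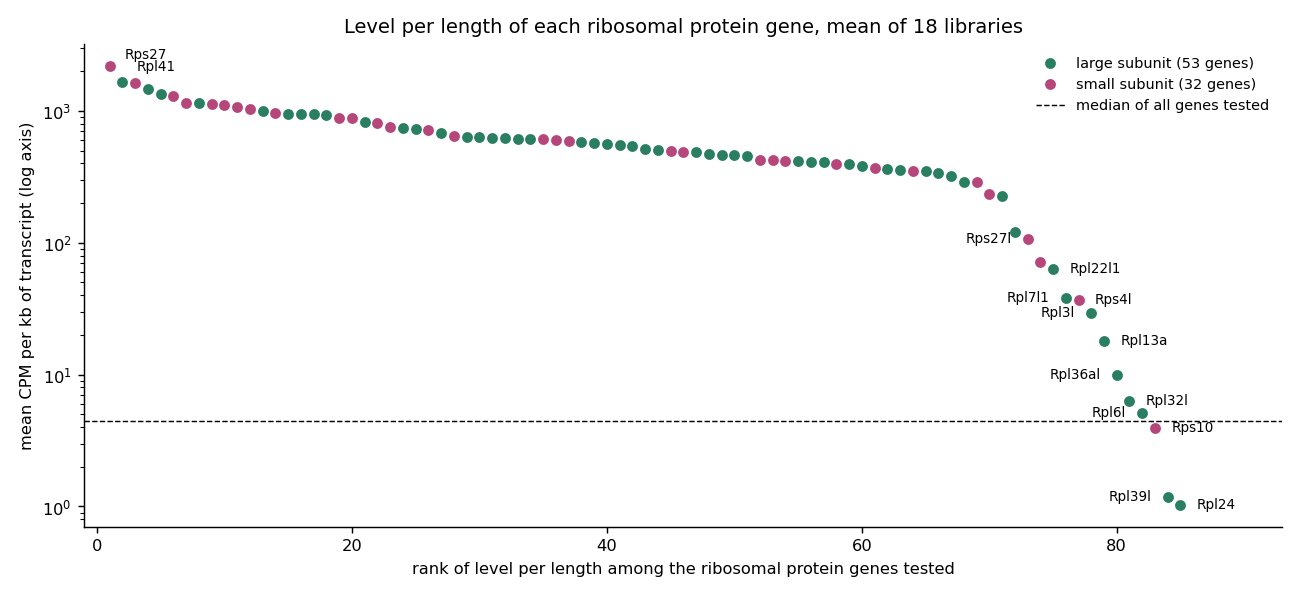
Mean level of each of the 85 ribosomal protein genes tested (y axis, CPM per kb of transcript, log scale) in order of level (x axis), green for the large and magenta for the small subunit; the dashed line is the median of all genes tested. The level falls slowly from 2196 CPM per kb for Rps27 and then steeply through the paralogues to 1.03 for Rpl24.

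At the lower end stood the paralogues and a few genes with canonical names. Rpl24 had a mean of 10.9 reads and 1.03 CPM per kb, the lowest of the large subunit, and ranged from 0.257 to 1.11 CPM. Rps10, the lowest of the small subunit, had 30.9 reads and 3.97 CPM per kb, and ranged from 0.976 to 3.64 CPM. Rpl13a had 18.1 and the retrocopy Rpl36al 9.86 CPM per kb. In the GENCODE M21 annotation all 4 share exon bases with a second gene on the same strand: Rpl24 47.0% of its exon bases with Gm28037, Rpl13a 29.4% with Gm45713, Rpl36al 24.5% with Gm49383 and Rps10 20.6% with a read-through gene, RPS10-NUDT3. These percentages are over the exons of all transcripts of a gene together. In the same order the shared bases were 484, 621, 332 and 475. The transcripts used for level per length have 677, 1047, 526 and 498 bases. How many shared bases lie in those transcripts was not determined. Reads that fall on both of such genes can be left uncounted, so the low levels of these genes are uncertain, and Gm28037, Gm45713 and Gm49383 were themselves at 0 in the tables. At 10% or more of exon bases, 6 of the 87 genes overlapped a gene on the same strand and 8 a gene on the opposite strand. The strand setting of the counting is not given in the sources used here. Of ribosomal components whose symbols lie outside the rule, Rps3a1 had a median of 713, Rack1 of 625 and Fau of 393 CPM. Rows of ribosomal protein pseudogenes, 322 in number, held 0.487 to 0.551 reads for every 100 reads of the 87 genes.

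The stalk and base proteins were measured with high precision. Rplp0, the scaffold of the stalk that recruits elongation factors, had 1300, 1320 and 1160 CPM in the controls at 10 weeks, 1430, 1440 and 1470 with 6% EtOH, and 1420, 1530 and 1150 with 10% EtOH. After cessation it had 1180, 1330 and 1170 CPM in controls, 960, 1470 and 1080 with 6% EtOH, and 1290, 1120 and 1070 with 10% EtOH. Its 6% EtOH libraries lay above the controls at 10 weeks, and every other pair of groups compared with a shared time overlapped. Rplp1 and Rplp2, the acidic partners that form the stalk's flexible arms, ranged over the 18 libraries from 378 to 612 and from 174 to 263 CPM. Rpsa, a small-subunit protein also known as a laminin receptor, ranged from 619 to 900 CPM. The variation between replicates, as edgeR's biological coefficient of variation, was 13.3% to 14.9% for these 4 genes. Its median was 14.6% over the 85 genes and 14.9% over all genes whose mean log2 CPM reached 6.

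Together the 87 genes held 2.92% to 4.40% of the assigned reads of a library. At 10 weeks the share averaged 3.43% ± 0.153 in control mice, 3.63% ± 0.105 in those on 6% EtOH and 3.41% ± 0.448 in those on 10% EtOH (mean ± SD, n = 3 each). After cessation it was 3.82% ± 0.509 in controls, 3.77% ± 0.297 with 6% and 3.74% ± 0.113 with 10% EtOH. All groups overlapped at each time except that the 3 libraries with 6% EtOH lay above the controls at 10 weeks; the lowest share belonged to 10% EtOH 10-week replicate 3 and the highest to control cessation replicate 3. No test was made of a share summed over chosen genes. In bulk RNA, fewer cells of a type and less RNA per cell cannot be told apart.

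The balance between the subunits was described without a test. The ratio of large-subunit to small-subunit reads was 1.54, 1.56 and 1.58 in the controls at 10 weeks, 1.49 to 1.51 with 6% EtOH, and 1.45 to 1.50 with 10% EtOH. Controls thus lay above both doses without overlap. After cessation the ratio was 1.42, 1.48 and 1.39 in controls, 1.47, 1.49 and 1.41 with 6% EtOH, and 1.54, 1.34 and 1.36 with 10% EtOH, and the 3 groups overlapped. Rps14 alone held 2.61% of the reads of the 87 genes and varied widely. Without Rps14 the ratio was 1.61 to 1.65 in controls at 10 weeks and 1.57 to 1.60 over both doses, with the lowest control at 1.608 and the highest treated library at 1.603.

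**Figure D2:**
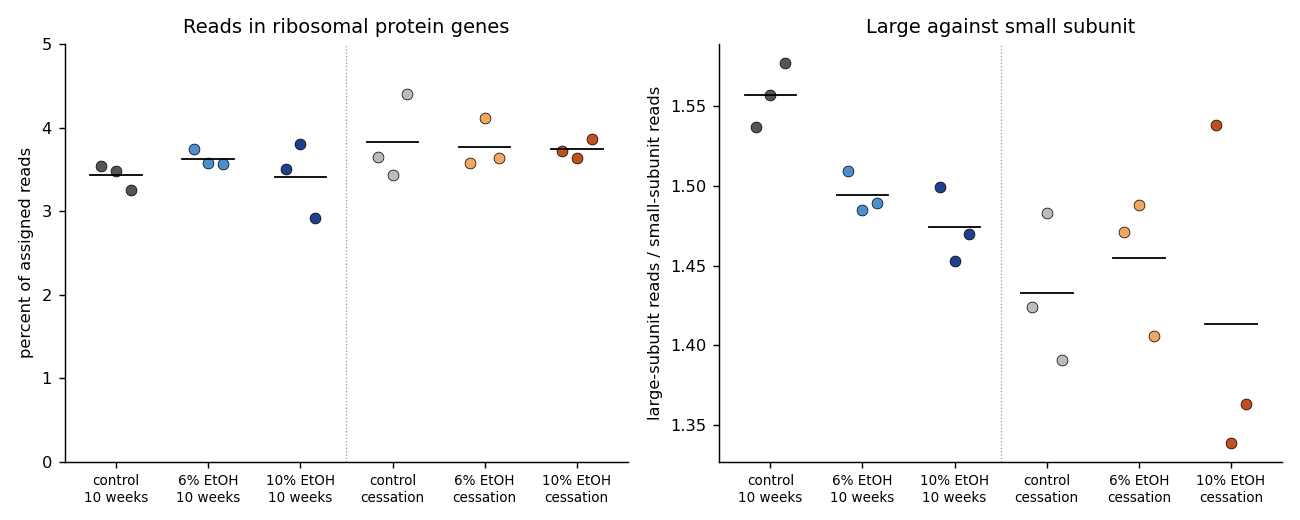
Left, percent of assigned reads in the 87 ribosomal protein genes; right, ratio of large-subunit to small-subunit reads (axis not starting at 0). Points are libraries and bars are group means; the shares stay between 2.92% and 4.40%, and the 3 controls at 10 weeks have ratios of 1.54 to 1.58, above both doses of EtOH at that time.

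The first comparison asked how the genes differed between 6% EtOH and control mice at 10 weeks. Log2 fold changes were above 0 for 76 of 85 genes, 47 of 53 in the large and 29 of 32 in the small subunit, with a median of 0.12 against -0.01 for all genes tested. None passed the test: edgeR's quasi-likelihood test with Benjamini-Hochberg adjustment called 0 of the 85 genes, and 0.0% of all genes. DESeq2 and limma voom also called none of them and 0.0% of all genes. At an unadjusted edgeR p under 0.05 there were 4 genes, all higher, where 1.14% of all genes were higher and 1.22% lower. In 43 of the 85 genes all 3 treated libraries lay above all 3 controls, and in 0 below, whereas 9.67% of all genes were above and 9.0% below in this way. The count was 24 of 53 for the large and 19 of 32 for the small subunit. It depended on the scale: 29 were above and 2 below on CPM of the library total (6.45% and 14.3% of all genes), and 21 above and 15 below (7.95% and 7.43%) once each library's trend with transcript length and GC content had been removed. With those trends removed, the median log2 fold change of the genes was -0.000856.

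The 5 genes of smallest p in this comparison were Rpl35a, Rps7, Rps27l, Rpl9 and Rpl11. Rpl35a, a large-subunit protein mutated in some patients with Diamond-Blackfan anaemia, had 162, 163 and 138 CPM in controls and 200, 210 and 196 with 6% EtOH. The groups did not overlap, and the log2 fold change was 0.39 ± 0.16 (SE), with an adjusted p of 1.0 in edgeR's test. Rps7, a small-subunit protein that can bind Mdm2, had 498, 505 and 429 CPM against 601, 646 and 656, with a log2 fold change of 0.41 ± 0.18. Rps27l, the p53-inducible paralogue of Rps27, had 43.5, 48.6 and 41.9 against 51.9, 57.3 and 54.1 CPM. Rpl9 and Rpl11, large-subunit proteins of which Rpl11 binds Mdm2 when not in the ribosome, had log2 fold changes of 0.36 ± 0.17 and 0.35 ± 0.17. In all 5 genes the treated libraries lay above the controls.

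Messages of the principal cell, the main secretory cell of the caput, also differed between these samples. The summed level of 12 principal cell markers spanned 79500 to 86500 CPM in control mice of 10 weeks, 92700 to 106000 in the 6% EtOH and 104000 to 125000 in the 10% EtOH group, without overlap between control and either dose. The summed level of 13 mitochondrially encoded genes spanned 8940 to 13100, 10400 to 14900 and 15700 to 30300 CPM in the same order. The 10 germ cell markers, sperm messages such as Prm2 among them, summed to 109 to 182, 120 to 201 and 108 to 203 CPM in these groups. The 8 macrophage markers summed to a median of 208 CPM in controls (lowest 184), 233 to 255 with 6% EtOH and 238 to 367 with 10% EtOH, again without overlap between control and either dose, and all 8 had log2 fold changes above 0 at both doses. The 6 fibroblast markers summed to 610 to 752, 657 to 832 and 866 to 988 CPM, and those of 10% EtOH lay above the controls. So did the smooth muscle markers, at 1540 to 1910 CPM in controls and 2000 to 2300 with 10% EtOH. Markers of adipocytes and T cells lay below the controls with 10% EtOH. Adipocyte markers summed to 47.4 to 52.5 CPM in controls and 34.8 to 45.3 with 10% EtOH. T cell markers had a median of 10.8 CPM in controls (lowest 10.2) and summed to 7.68 to 9.97 with 10% EtOH. With 6% EtOH all of these lists from fibroblasts on overlapped the controls. At either dose edgeR called 0.0% of all genes at 10 weeks and so none of these markers, which is not particular to them. The part of these shifts in the values of the ribosomal protein genes was not tested.

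With 10% EtOH at 10 weeks the genes were more mixed. Against the same controls, 53 of 85 genes had log2 fold changes above 0, with a median of 0.07 against -0.01 for all genes. The edgeR test called 0 of them and 0.0% of all genes, and DESeq2 and limma voom called none of them and 0.392% and 0.0% of all genes. At an unadjusted edgeR p under 0.05 there were 11 genes, all higher, where 6.84% of all genes were higher and 6.59% lower. In 24 genes all treated libraries lay above all controls and in 1, Rpl4, below, against 15.2% and 15.5% of all genes. Without 10% EtOH replicate 3, these counts were 44 and 2 (19.7% and 20.8% of all genes), and with length and GC trends removed they were 16 and 24 (12.5% and 13.3%). On CPM of the library total they were 11 and 9 (9.45% and 23.9%), and with the trends removed the median log2 fold change was -0.02. That median was 0.15 without 10% EtOH replicate 3 and -0.02 without replicate 2. A fit to the 9 libraries of 10 weeks alone called 11 of the 85 genes higher at an adjusted edgeR p under 0.05 and none lower, where it called 6.17% of all genes, 3.92% higher. Without a low-count filter edgeR called Rps14 alone, and 2.02% of all genes. The 11 were Rpl22l1, Rps27, Rpl5, Rps27l, Rps27a, Rps23, Rpl15, Rpl35a, Rps14, Rpl17 and Rpl39. The common coefficient of variation was 10.8% to 20.0% within the groups of 10 weeks and 23.6% to 31.3% within those of cessation, which the fit over all 18 libraries pools.

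Rps14, a protein of the small-subunit platform whose loss contributes to a human myelodysplastic syndrome, had the widest spread of any abundant ribosomal protein gene, with a coefficient of variation of 28.2%. It had 619, 623 and 533 CPM in controls at 10 weeks, 904, 917 and 890 with 6% EtOH, and 942, 1230 and 965 with 10% EtOH. After cessation it had 1330, 952 and 846 CPM in controls, 550, 718 and 1400 with 6% EtOH, and 638, 1740 and 1690 with 10% EtOH. Controls at 10 weeks were the low group of that time, and after cessation every group overlapped. For 10% EtOH against control at 10 weeks the log2 fold change was 0.82 ± 0.33, with an adjusted p of 0.319 in edgeR over all 18 libraries and 0.0117 in edgeR over the 9 libraries of that time.

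Rps27, whose promoter is shown above, had 565, 555 and 482 CPM in controls at 10 weeks, 715, 756 and 709 with 6% EtOH, and 731, 844 and 766 with 10% EtOH. After cessation its values were 827, 708 and 779 CPM in controls, 499, 718 and 1030 with 6% EtOH, and 643, 1250 and 1060 with 10% EtOH. Replicate 1 of both EtOH groups of cessation was low for Rps14 and for Rps27. Rpl17, which lines the exit tunnel, had 916, 941 and 793 CPM in controls and 1160, 1330 and 1270 with 10% EtOH at 10 weeks, a log2 fold change of 0.51 ± 0.19. Rpl39, a short exit-tunnel protein, had 231, 233 and 222 CPM against 279, 322 and 328, a log2 fold change of 0.44 ± 0.15 with an adjusted edgeR p of 0.299. Rps23, which sits in the decoding centre, had 513, 506 and 444 CPM against 588, 668 and 619, and a log2 fold change of 0.36 ± 0.15. In all of these the treated libraries lay above the controls. Rpl4, another exit-tunnel protein, had 1410, 1470 and 1370 CPM in controls and 1340, 1290 and 1050 with 10% EtOH, a log2 fold change of -0.21 ± 0.16. The comparisons of 6% and 10% EtOH share their controls, so they are not independent of each other. Rpl4 was named after its values were seen.

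**Figure D3:**
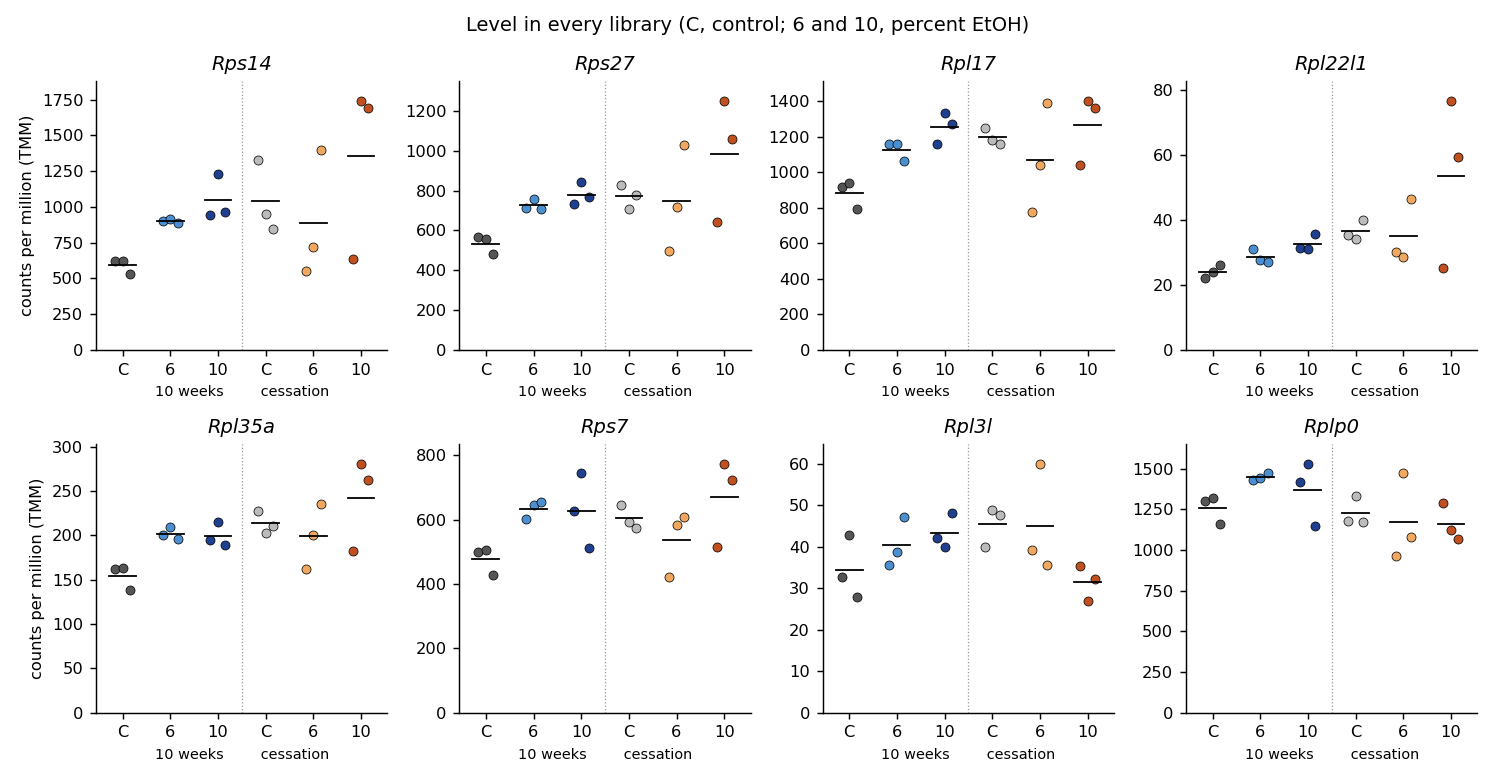
Composition-scaled CPM of 8 ribosomal protein genes in every library (points) with group means (bars), 10 weeks on the left of each panel and cessation on the right. For Rps14 the controls at 10 weeks lie at 533 to 623 CPM below both doses, while after cessation single libraries of 1 group range from 638 to 1740.

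After cessation the treated and control groups were hard to separate. For 6% EtOH, 30 of 85 genes had log2 fold changes above 0, with a median of -0.04 against -0.01 for all genes. The edgeR test called 0 of the 85 and 0.0% of all genes, DESeq2 and limma voom called none of them and 0.00537% and 0.0% of all genes, and no gene had an unadjusted edgeR p under 0.05, where 0.838% of all genes were higher and 0.779% lower at that level. In 0 of the 85 genes did the groups lie apart, against 2.0% of all genes higher and 2.01% lower. The median was 0.05 without 6% EtOH replicate 1, the library with differing identifiers, and -0.14 without replicate 2. The smallest p belonged to Rpl6l, a low-count paralogue of Rpl6 with 3.62, 4.66 and 2.65 CPM in controls and 3.34, 9.13 and 3.40 with 6% EtOH. Its log2 fold change of 0.54 ± 0.34 rested on replicate 2 and was -0.12 without it.

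For 10% EtOH after cessation, 48 of 85 genes had log2 fold changes above 0, with a median of 0.01 against -0.02 for all genes, which was -0.07 without 10% EtOH replicate 1. The edgeR test again called 0 of the 85 and 0.0% of all genes, and DESeq2 and limma voom none of them and 0.0% of all genes. At an unadjusted edgeR p under 0.05 there was 1 gene, Rpl3l, lower, where 1.59% of all genes were higher and 5.07% lower. The groups lay apart for 2 genes higher and 2 lower (Rpl3l and Rps18), against 2.49% and 3.97% of all genes; Rps18 was named after its values were seen. Rpl3l, a paralogue of Rpl3 best known from striated muscle, had 39.8, 48.8 and 47.6 CPM in controls and 35.4, 27.0 and 32.2 with 10% EtOH, a log2 fold change of -0.52 ± 0.19 with an adjusted edgeR p of 0.744. The 8 striated muscle markers, of which Myh4 had no read in any library and Mylpf 22 to 72, summed to 4.91 to 9.0 CPM in these controls and 4.97 to 7.37 with 10% EtOH, and their part in this value was not tested. Rpl22l1, the paralogue of Rpl22, had 35.5, 34.2 and 40.0 CPM in controls and 25.1, 76.6 and 59.3 with 10% EtOH, and its log2 fold change was 0.55 ± 0.27, with replicate 1 below and replicates 2 and 3 above every control. Without replicate 1 the value was 0.89 and without replicate 2 it was 0.20. Rpl22 itself had a log2 fold change of 0.32 ± 0.16, Rpl36 -0.31 ± 0.17 and Rpl39 0.27 ± 0.15, all with overlapping groups. Across the 85 genes, the log2 fold change and the GC content of the transcript had a Spearman correlation of -0.34, given as a description because the genes share the same 6 libraries.

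**Figure D4:**
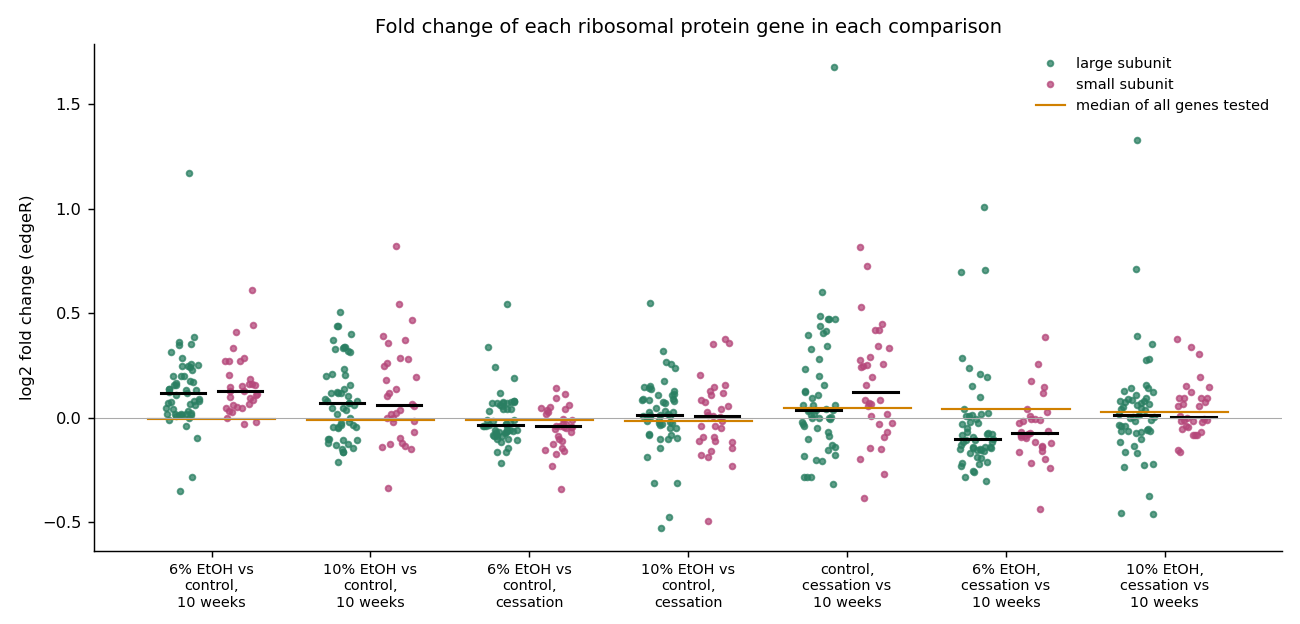
Log2 fold change of each ribosomal protein gene (points; green large, magenta small subunit) in 7 comparisons, with the median of each subunit in black and that of all genes tested in orange. The medians are 0.12 for the large and 0.13 for the small subunit with 6% EtOH at 10 weeks and lie within 0.04 of 0 for both doses after cessation; the controls at 10 weeks enter 3 of the comparisons.

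The cessation libraries were also compared with those of 10 weeks within each arm. The time of collection, the age of the mice and any batch cannot be told apart here. In controls, 55 of 85 genes had log2 fold changes above 0, with a median of 0.06 against 0.05 for all genes. The edgeR test called 0 of the 85 genes and 0.118% of all genes, and limma voom called none of the 85 and 0.0161% of all genes. DESeq2 called Rps23 and Rps24, both higher (5.33% of all genes), and edgeR without a low-count filter Rpl22l1 and Rps14 (4.79%). At an unadjusted edgeR p under 0.05, 15 genes were higher and 0 lower, where 12.1% and 8.14% of all genes were. The groups lay apart for 26 genes higher and 7 lower, against 12% and 13.1% of all genes, and for 15 and 20 with length and GC trends removed (8.87% and 12.1%). Without control cessation replicate 2, edgeR called 2 of the 85 genes, Rps24 among them, and 14% of all genes. Rpl35a had 162, 163 and 138 CPM at 10 weeks and 203 to 228 after cessation, a log2 fold change of 0.47 ± 0.16 with an adjusted edgeR p of 0.136. Rps24, a small-subunit protein also mutated in Diamond-Blackfan anaemia, had 607, 584 and 504 against 754, 663 and 898 CPM, a log2 fold change of 0.45 ± 0.16. For Rps23, Rpl31 and Rpl9 it was 0.42 ± 0.15, 0.42 ± 0.15 and 0.47 ± 0.17. These controls at 10 weeks are the same libraries as in the comparisons of both doses.

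In the 6% EtOH arm 23 of 85 genes had log2 fold changes above 0, with a median of -0.08 against 0.04 for all genes. The edgeR test called 0 of the 85 and 0.188% of all genes, and DESeq2 and limma voom none of the 85 and 2.25% and 0.0537% of all genes. A single gene, Rpl32l, was higher at an unadjusted edgeR p under 0.05, where 12.1% of all genes were higher and 7.05% lower, and the groups lay apart for 1 gene higher, Rpl32l, and 4 lower, Rpl9, Rps26, Rpl19 and Rpl15 (13.8% and 12.2% of all genes). These counts turned to 10 higher and 0 lower on CPM of the library total (18.6% and 5.92%) and were 6 and 9 with length and GC trends removed (13.1% and 17.5%). Rpl32l is a low-count copy of Rpl32, with 2.17, 1.80 and 1.34 CPM at 10 weeks and 2.30, 3.55 and 4.90 after cessation, a log2 fold change of 1.01 ± 0.38. Rps26, which contacts messenger RNA at the exit of its channel, had 1080, 1020 and 1000 against 583, 983 and 724 CPM, a log2 fold change of -0.44 ± 0.24 that became -0.30 without cessation replicate 1 and -0.67 without replicate 2. Rplp0 had a log2 fold change of -0.30 ± 0.17, which was -0.21 without cessation replicate 1 and -0.51 without replicate 2. That of Rpl19 was -0.21 ± 0.14, with -0.0951 and -0.31 in the same order, while Rps12 had 0.26 ± 0.15. The median itself was -0.01 without cessation replicate 1 and -0.21 without replicate 2.

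In the 10% EtOH arm 45 of 85 genes had log2 fold changes above 0, with a median of 0.01 against 0.03. The edgeR test called 0 of the 85 and 0.0215% of all genes, and DESeq2 and limma voom none of the 85 and 0.483% and 0.0% of all genes. Without a low-count filter edgeR called Rpl22l1 and 1.58% of all genes. At an unadjusted edgeR p under 0.05, 2 genes were higher and 2 lower (4.61% and 4.57% of all genes). The groups lay apart for 0 genes higher and 3 lower, against 7.08% and 8.48%. The lower ones were Rpl6l, Rpl3l and Rpl7l1. Rpl7l1, a relative of Rpl7, had 61.8, 56.9 and 53.0 CPM at 10 weeks and 48.4, 42.5 and 41.7 after cessation. Its log2 fold change was -0.37 ± 0.11, with an adjusted edgeR p of 0.378. Rpl3l had 42.1, 40.0 and 48.0 CPM at 10 weeks against 35.4, 27.0 and 32.2, a log2 fold change of -0.46 ± 0.19. Rpl22l1 had 31.3, 31.1 and 35.6 CPM against 25.1, 76.6 and 59.3, a log2 fold change of 0.71 ± 0.27 that was 1.05 without cessation replicate 1 and 0.36 without replicate 2. Rpl31 and Rpl5, of which Rpl5 joins Rpl11 in a complex with a small ribosomal RNA, had log2 fold changes of 0.35 ± 0.15 and 0.39 ± 0.19, which were 0.25 and 0.23 without cessation replicate 2.

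Whether the effect of EtOH differed between the times was tested as an interaction. For 6% EtOH, the effect after cessation minus that at 10 weeks was below 0 for 67 of 85 genes, with a median of -0.14 against 0.00 for all genes. The edgeR test called 0 of the 85 and 0.0% of all genes, DESeq2 and limma voom none and 0.0% of all genes, and 4 genes were lower at an unadjusted edgeR p under 0.05, where 1.56% of all genes were higher and 1.45% lower. These were Rpl9, Rps27l, Rps7 and Rpl35a, with differences of -0.58 ± 0.24, -0.43 ± 0.19, -0.58 ± 0.26 and -0.49 ± 0.22. The median was -0.02 with length and GC trends removed. For 10% EtOH, 54 of 85 genes were below 0, with a median of -0.08 against -0.03 for all genes. This median was 0.0405 with length and GC trends removed and 0.00998 without 10% EtOH 10-week replicate 2. Here edgeR called 0 of the 85 and 0.0% of all genes, and DESeq2 and limma voom none of the 85 and 0.0107% and 0.0% of all genes. The 2 genes with an unadjusted edgeR p under 0.05, both lower, where 3.66% of all genes were higher and 3.79% lower, were Rpl3l and Rps18. Rpl3l had the largest difference among the 5 genes of smallest p at -0.85 ± 0.27, with an adjusted edgeR p of 0.645. Its level was 32.8, 42.8 and 27.8 CPM in controls at 10 weeks against 42.1, 40.0 and 48.0 with 10% EtOH, and the order of the group means was the opposite after cessation.

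Over all 6 groups at once, edgeR called 0 of the 85 genes and 0.295% of all genes, and 7 genes had an unadjusted p under 0.05, where 19.8% of all genes did. The smallest adjusted edgeR p was that of Rpl22l1, at 0.189, followed by Rpl31 at 0.204, Rpl35a at 0.209, Rpl5 at 0.213 and Rpl7l1 at 0.242. DESeq2's likelihood ratio test called 4 of them, Rpl22l1, Rpl31, Rpl35a and Rpl5, and 10.2% of all genes, and limma voom called none and 0.0913%. Without a low-count filter edgeR called 4, Rpl22l1, Rps27, Rps27a and Rps14 (9.99% of all genes), and limma voom with library quality weights called 39 (56.5%). The level of Rpl22l1 was 22.2, 23.9 and 26.2 CPM in controls at 10 weeks, 31.0, 27.8 and 27.2 with 6% EtOH and 31.3, 31.1 and 35.6 with 10% EtOH. In the 6% EtOH cessation group it was 30.0, 28.6 and 46.4 CPM. The controls at 10 weeks were again the lowest group, below both doses without overlap. Rpl22l1, Rps14 and Rps26 had the largest variation between replicates among the ribosomal protein genes whose mean log2 CPM reached 5, at 23.5%, 28.2% and 20.6%. Without 10% EtOH cessation replicate 1, edgeR's adjusted p for Rpl22l1 was 0.00448, the 1 call among the 85 genes in a fit that called 0.756% of all genes.

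Paralogues were compared with their partners within each library, which removes the scaling between libraries but not trends with transcript length and GC content. Of 11 pairs, 9 had enough reads in both genes. Per transcript length the partner exceeded the paralogue in each pair, by 10.7-fold for Rpl22 over Rpl22l1, 14.7-fold for Rpl7 over Rpl7l1, 16.4-fold for Rps4x over its autosomal copy Rps4l, 20.7-fold for Rps27 over Rps27l and 21.4-fold for Rpl3 over Rpl3l. For Rpl36a over Rpl36al it was 41.7-fold, for Rpl6 over Rpl6l 90.2-fold, for Rpl32 over Rpl32l 151-fold and for Rpl39 over Rpl39l 394-fold. Rpl39l, a paralogue of male germ cells in mice, reached only 0.116 to 1.53 CPM. Reads of near-identical copies can be assigned to either gene or left out, so the ratios of the retrocopies Rpl6l, Rpl32l, Rpl36al and Rps4l are uncertain.

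Of the 27 tests of paralogue ratios, 1 passed an adjusted p of 0.05, that of Rpl7l1 to Rpl7 between times. For EtOH against control, 6 against 3 libraries allow no p low enough for 1 pair alone to pass after adjustment over 9 pairs. The lack of calls there is therefore no evidence that these ratios were unchanged. Rpl7l1 supplied 7.30%, 7.60% and 7.25% of the joint reads of Rpl7l1 and Rpl7 in controls at 10 weeks, 7.09%, 7.93% and 8.10% with 6% EtOH, and 8.85%, 7.77% and 7.54% with 10% EtOH. After cessation it supplied 7.46%, 6.28% and 6.72% in controls, 7.10%, 7.38% and 6.01% with 6% EtOH, and 6.41%, 5.57% and 6.04% with 10% EtOH. Of the 9 cessation libraries, 6 lay below all 9 of 10 weeks. The log2 ratio of Rpl7l1 to Rpl7 was -3.84 ± 0.155 after cessation and -3.58 ± 0.106 at 10 weeks (mean ± SD, n = 9 each), a difference of -0.26 with an exact two-sided permutation p of 0.000946 and a value of 0.00852 after adjustment over the 9 pairs. Leaving out any library in turn kept the difference between -0.28 and -0.23. The libraries were permuted across arms, so the permutation p does not test the times within an arm. By arm the mean log2 ratio was -3.65 at 10 weeks and -3.77 after cessation in controls, -3.58 and -3.77 with 6% EtOH, and -3.52 and -3.97 with 10% EtOH. The libraries of the times did not overlap in the 10% arm and overlapped in the other arms.

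The ratio of Rpl22l1 to Rpl22 differed in the opposite direction but did not pass. It was -3.08 ± 0.345 after cessation and -3.45 ± 0.206 at 10 weeks, a difference of 0.37 with an exact permutation p of 0.0143 and an adjusted value of 0.0644. In 3 of 9 cessation libraries it lay above all libraries of 10 weeks. The adjusted exact permutation p was 0.0302 without 6% EtOH cessation replicate 2, 0.0139 without 10% EtOH cessation replicate 1 and 0.0263 without 10% EtOH 10-week replicate 3. The difference for Rpl39l to Rpl39 was 1.15 (exact permutation p adjusted over the 9 pairs, 0.0992), that for Rpl32l to Rpl32 was 0.46 (adjusted exact permutation p, 0.110) and that for Rps27l to Rps27 was -0.23 (adjusted exact permutation p, 0.112). Without 10% EtOH cessation replicate 1 the adjusted exact permutation p was 0.0197 for Rpl39l and 0.0211 for Rpl32l, and without 10% EtOH 10-week replicate 3 it was 0.0268 for Rpl32l. The 10 germ cell markers summed to 150 to 333, 202 to 313 and 142 to 295 CPM in control, 6% and 10% EtOH mice after cessation, against 109 to 182, 120 to 201 and 108 to 203 CPM at 10 weeks; the times overlapped in control and 10% EtOH mice and not in the 6% arm. Their part in the Rpl39l ratio was not tested. Between EtOH and control mice at 10 weeks the smallest p belonged to Rps27l to Rps27, with a log2 ratio of -3.74 ± 0.0625 (n = 6) against -3.58 ± 0.104 (n = 3). This difference of -0.17 had an exact permutation p of 0.0238 and an adjusted value of 0.214, and 5 of 6 treated libraries lay below all controls. After cessation the smallest adjusted exact permutation p was 0.75. With 6 against 3 libraries no p below 0.0119 can arise in these tests.

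**Figure D5:**
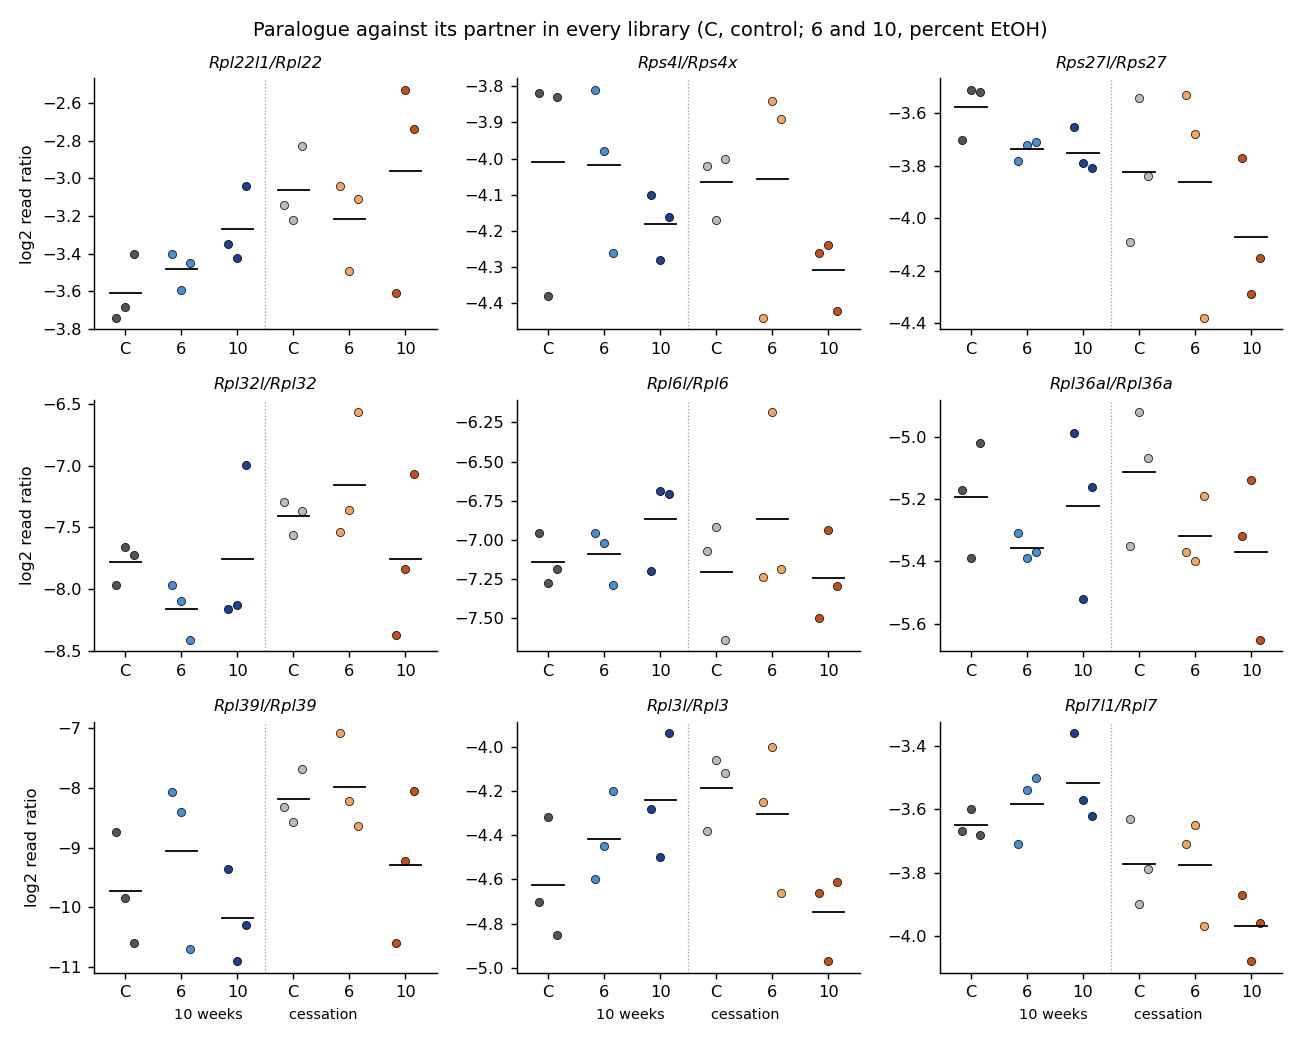
Log2 ratio of the reads of a paralogue to those of its partner in every library (points) with group means (bars), 9 pairs; axes differ between panels. For Rpl7l1 to Rpl7 the cessation libraries average -3.84 against -3.58 at 10 weeks, and for Rpl22l1 to Rpl22 -3.08 against -3.45.

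Genes that work with the ribosome did not pass the test either. Of 18 translation factors encoded by TOP messenger RNAs, 34 ribosome biogenesis genes, 18 tested subunits and factors of RNA polymerase I, 20 genes of mTORC1 and TOP control and 9 tested snoRNA host genes, edgeR called 0 at either dose and time, and 0 between times in controls. At 10 weeks with 6% EtOH the median log2 fold change was -0.00145 for the translation factors (9 of 18 above 0), 0.03 for ribosome biogenesis (20 of 34) and -0.07 for mTORC1 and TOP control (6 of 20). With 10% EtOH these medians were 0.00, 0.01 and -0.18. The background was 0.0% of all genes called in both comparisons. The summed level of mTORC1 and TOP control was 1800 to 1870 CPM in controls at 10 weeks, 1740 to 1790 with 6% and 1580 to 1740 with 10% EtOH. Controls thus lay above both doses for this list. At 10 weeks the sums of the translation factors, ribosome biogenesis, RNA polymerase I and snoRNA host genes overlapped between control and either dose. The 4 ribosomal components outside the symbol rule summed to 1590 to 1750 CPM in controls and 1830 to 1910 with 6% EtOH, without overlap. With 10% EtOH they summed to 1380 to 1960 CPM. In controls after cessation the sum of mTORC1 and TOP control was 1220 to 1680 CPM. That of the snoRNA host genes was 223 to 244 CPM in controls at 10 weeks and 265 to 352 after cessation. No test was made of these sums. Between times in controls edgeR called 4 of 15 immediate early genes (0.118% of all genes), which respond within minutes to stress and handling: Atf3, Dusp1, Btg2 and Junb were higher after cessation, with log2 fold changes of 5.29, 3.82, 2.42 and 1.85. In the 6% EtOH arm edgeR called more of them higher (0.188% of all genes). The largest log2 fold changes there were 7.81 for Fosb, 6.628 for Fos, 5.135 for Atf3 and 4.406 for Dusp1. In the 10% EtOH arm it called Fosb and Fos (0.0215% of all genes), at 6.631 and 5.996. The summed level of the 15 genes was 652 to 747 CPM in controls at 10 weeks and 962 to 2800 after cessation. It was 611 to 640 and 1570 to 2260 CPM with 6% EtOH, and 562 to 658 and 1080 to 1470 CPM with 10% EtOH. The part of these differences in the values of the ribosomal protein genes was not tested.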

How the data were processed

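The deposited tables hold raw read counts per gene for each of 18 libraries, which the authors made with Trimmomatic, STAR and featureCounts on GRCm39, per the submitters' processing notes; their versions and the annotation were not found in the labels. Per the labels, total RNA came from a Qiagen RNeasy kit and was read on an Illumina HiSeq. Assigned reads per library, in units of 1e6, ranged from 10.7 to 21.1 (median 16.0), so the genes' precision was set by the spread between libraries, and no pair of replicates agreed within sampling noise. The members and gene lists were chosen with earlier results of these data known.

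Genes were tested in edgeR 4.0.16 (R 4.3.3) with robust quasi-likelihood fits over all 18 libraries, a term for each of the 6 groups, TMM scaling, edgeR's expression filter (minimum count 10, minimum total 15) and Benjamini-Hochberg adjustment over 18618 genes. The threshold was an adjusted p of 0.05. DESeq2 1.42.0, limma 3.58.1, other scalings and filters, fits to the libraries of the groups compared, removal of trends with transcript length and GC content (GENCODE M21), and leaving out each library were alternatives. On simulated counts of 18618 genes, 10% EtOH was set against control at 10 weeks. The edgeR test recovered 78 of 100 genes changed by a log2 of 1 and 100 of 100 changed by 2. It made 4 false calls among the genes left unchanged. The changed genes were drawn from the better-expressed ones, and all others had the same expected share of reads in every library. Trends with length and GC content were not simulated. The simulated spread followed the trend with expression level and was the same in every group. In the data the common coefficient of variation ran from 10.8% to 31.3% by group. No change under a log2 of 1 was simulated, so recovery of smaller changes was not measured. Paralogue ratios were log2 ratios of counts with a pseudocount of 0.5, compared by exact two-sided permutation tests over libraries (scipy 1.17.1). Genes named in each comparison were the 5 of smallest p, besides the stalk proteins, the extremes of level and spread, and those said to be named after their values were seen; some genes are not reported here.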

Additional observations from a re-analysis of the deposited data

How the results depend on the processing

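No paired analysis was possible because the labels give no replicate numbers, and numbers given in accession order pair no samples. The number of ribosomal protein genes called for 10% EtOH against control at 10 weeks, 0 in edgeR over all libraries, was 1 (Rps14) without a low-count filter and 11 in the fit to the libraries of that time. For cessation against 10 weeks in controls it was 2 in DESeq2 and 2 without a filter (Rpl22l1 and Rps14), and 0 to 2 on leaving out a library, with 2 without control cessation replicate 2 (14% of all genes). For 10% EtOH mice it was 1 (Rpl22l1) without a filter. Over the 6 groups it was 4 in DESeq2, 4 without a filter, 39 in limma voom with library quality weights, which called 56.5% of all genes, and 0 to 1 on leaving out a library, with 1 without 10% EtOH cessation replicate 1 (0.756%). Removing the trends with length and GC content gave a median log2 fold change of -0.000856 for 6% EtOH at 10 weeks, and the median difference of the 10% EtOH effect was 0.0405. On leaving out a library the median ranged from -0.207 to -0.0111 for 6% EtOH mice between times and from -0.267 to -0.0820 for the difference of the 6% effect. Among named genes, Rps27l with 10% EtOH at 10 weeks was -0.00963 with the trends removed, and Rpl6l with 6% EtOH after cessation ranged from -0.12 to 0.78. The share of reads after removing mitochondrial and the 20 most abundant genes was 4.12%, 4.47% and 4.26% at 10 weeks and 4.62%, 4.56% and 4.66% after cessation in control, 6% and 10% EtOH mice. Counts of genes whose groups lay apart, under settings chosen after seeing the data, were 21 higher and 15 lower for 6% EtOH with the trends removed (7.95% and 7.43% of all genes), 11 and 9 for 10% EtOH on library-total CPM (9.45% and 23.9%), 44 and 2 without its replicate 3 (19.7% and 20.8%), and 15 and 20 for controls between times with the trends removed (8.87% and 12.1%). For 6% EtOH mice between times they were 10 and 0 on library-total CPM (18.6% and 5.92%). Between times, the difference in the log2 ratio of Rpl36al to Rpl36a was 0.00399 with a pseudocount of 5, and on leaving out a library the differences ranged from 0.30 to 0.44 for Rpl22l1, 0.35 to 0.58 for Rpl32l, 0.98 to 1.42 for Rpl39l, with an adjusted exact permutation p under the threshold in 3, 2 and 1 of these 18 cases, -0.0545 to 0.0365 for Rpl36al and -0.0374 to 0.0856 for Rpl3l. For EtOH against control the ranges were -0.27 to 0.00351 for Rps4l and -0.32 to 0.61 for Rpl39l at 10 weeks, and -0.13 to 0.10 for Rpl22l1, -0.22 to 0.14 for Rpl32l and -0.0699 to 0.29 for Rpl6l after cessation, where differences of medians were 0.0689 for Rpl22l1 and -0.15 for Rpl6l. The cause of these shifts was not tested. The Rpl7l1 to Rpl7 difference between times kept its direction and passed with a pseudocount of 5, with medians in place of means and on leaving out each library. Removal of trends with length and GC content was not applied to the paralogue ratios. The GC content of the transcript was 50.5% for Rpl7l1 and 45.8% for Rpl7, and its part in this difference was not tested. Depth limits Rpl24, Rps10, Rpl39l and Rpl32l, whose counts are low.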
